A study of Mus musculus with 9 samples.

Results

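Potassium channels other than the voltage-gated Kv pores were followed as targets of transposon insertion in mouse medulloblastoma of the Sonic hedgehog (SHH) group. The genes were taken by symbol, as all those of the deposited counts table that start with Kcnj, Kcnk, Kcnm, Kcnn, Kcnt, Kcnu, Kcne, Kcnip or Kcnab. This gave 53 genes of 22353 symbols, all of them listed as protein coding: 15 Kcnj, 14 Kcnk, 5 Kcnm, 4 Kcnn, 3 Kcnt and Kcnu, 5 Kcne, 4 Kcnip and 3 Kcnab. The tumours came from Lazy Piggy mice, whose mobile element carries a Sleeping Beauty (SB) and a piggyBac (PB) part, and the stated purpose was to find genes that maintain the tumour. Tumours of 72 tamoxifen-treated (TAM+) and 47 untreated (TAM-) animals were compared, by the authors' sample sheet, each with IR libraries read from the SB ends, JX libraries read from the boundary of both parts and PB libraries read from the PB ends. In the TAM+ arm the days listed ran from 4 to 249. All animals shared the genotype lazy_piggy. The donor chromosome of the element was 10 in 90 animals and 7 in 29, and no source used here names the transposases, other alleles, strain or age. The animal was the replicate, since the 9 samples of the series are sequencing lanes that each hold many animals.

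Inward rectifier (Kcnj) and two-pore (Kcnk) channels set the resting potential of neurons and many other cells. Calcium-activated channels (Kcnm, Kcnn) open as calcium rises in the cell and so link calcium entry to repolarisation. The related Slo channels open with sodium (Kcnt) or with a change of pH (Kcnu). Kcne, Kcnip and Kcnab genes encode auxiliary subunits that ride on Kv pores and change their gating or traffic. SHH medulloblastoma arises from granule neuron precursors of the cerebellum. The assay read genomic DNA, so it reports where the element sits in the genome and gives no channel RNA or protein.

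Called insertions in these genes were few, and most of the clear ones were private to 1 tumour. A called site needed 10 counts or more in an animal and no less than 1% of what that animal's highest site had in the same kind of library. By this rule 16 of the 53 genes had a called site and 37 had none. IR libraries gave 8 called sites, JX libraries 22 and PB libraries 8, found in 18 tumours, 12 TAM+ and 6 TAM-, which are lettered A to R. Sites of 1 tumour and gene within 500 bp were joined across the kinds of library, which left 28 insertions: 3 called in all 3 kinds, 4 in 2 kinds and 21 in 1 kind. The 3 seen in all kinds were next to Kcnn3 and Kcnj8 in tumour A and upstream of Kcnn2 in tumour B, all TAM+.

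Read against the whole table, the genes were hit more often than the average symbol, while their share of called sites lay near their share of listed positions. In IR, 8 of 53 genes (15.1%) had a called site in at least 1 animal, against 6.35% of all symbols. In JX the numbers were 15 of 53 (28.3%) against 16.4%, and in PB 6 of 53 (11.3%) against 7.83%. The table gives no gene lengths, so positions listed with any count served as the measure of target size. The genes held 0.308% of all listed IR positions and 0.346% of the called IR sites. In JX they held 0.317% of positions and 0.325% of called sites, and in PB 0.337% of positions and 0.275% of called sites.

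**Figure D1:**
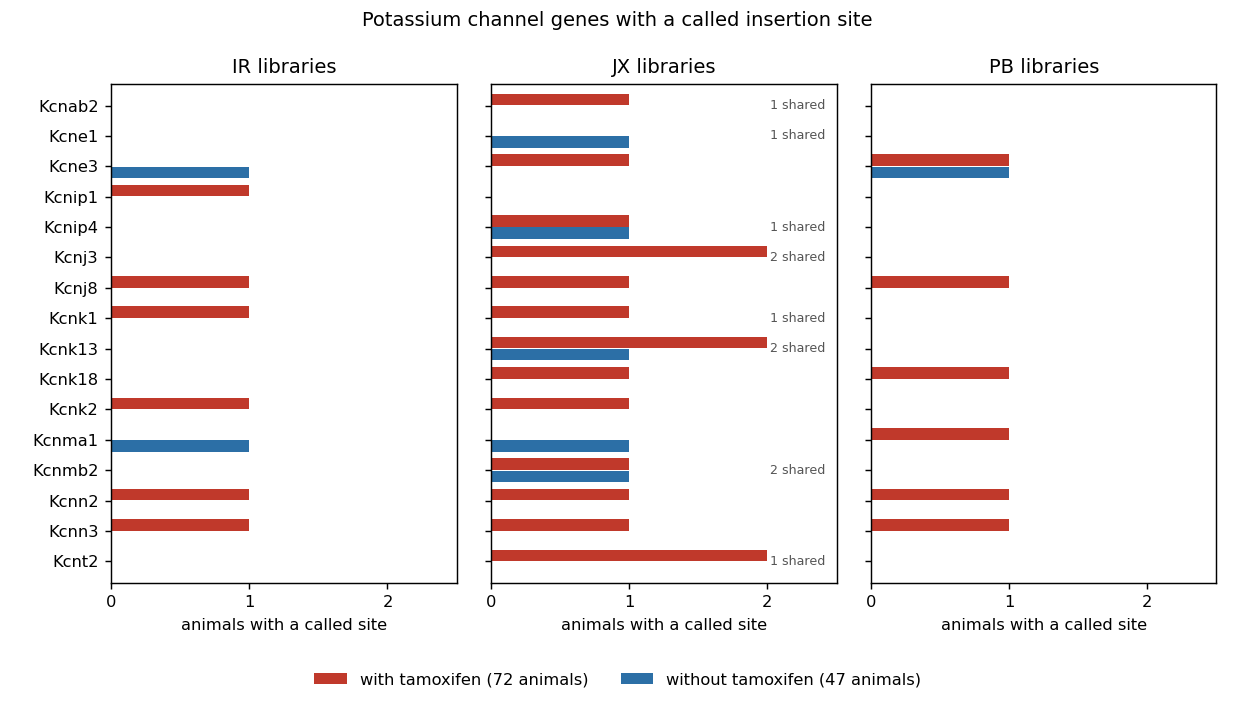
Number of animals credited with a called site for each of the 16 genes that had any, in IR, JX and PB libraries (left to right). Each site counts only for the animal in which it had the highest share of counts. Red bars are the 72 TAM+ animals and blue bars the 47 TAM- animals, and the grey label counts called sites at positions shared over animals. No gene exceeds 2 credited animals in an arm, and all labels lie in the JX panel.

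The comparison of arms asked whether tumours from tamoxifen-treated animals carried the element at other genes than untreated tumours. In TAM+ tumours 6 of 53 genes (11.3%) were hit in IR, against 4.4% of all symbols, and in TAM- tumours 2 (3.77%) were hit, against 2.29%. In JX 13 genes (24.5%) were hit in TAM+ tumours against 11.6% of all symbols, and 5 genes (9.43%) in TAM- tumours against 6.85%. In PB 6 genes (11.3%) were hit in TAM+ tumours against 5.77% of all symbols, and 1 gene (1.89%) in TAM- tumours against 2.64%. The TAM+ arm holds more animals and more called sites, so its counts of genes are higher for the whole table too.

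Counted by animal, at least 1 of the 53 genes was hit in IR in 5 of 72 TAM+ animals (6.94%, exact 95% interval 2.29 to 15.5%) and in 2 of 47 TAM- animals (4.26%, 0.52 to 14.5%). In JX the shares were 10 of 72 (13.9%, 6.87 to 24.1%) and 4 of 47 (8.51%, 2.37 to 20.4%). In PB they were 5 of 72 (6.94%, 2.29 to 15.5%) and 1 of 47 (2.13%, 0.0539 to 11.3%). All 3 pairs of intervals overlap. The order of the arms in JX turned with the rule, to 26 of 72 TAM+ and 27 of 47 TAM- animals at 0.1% of the highest site. It also turned where every animal with a called site counts, to 15 and 11, and with 10 counts and no minimum share, to 50 and 41. In PB it turned at 0.1% to 19 TAM+ and 20 TAM- animals. Within lanes, with the 7 animals of 2 lanes counted in both, the TAM+ share in IR was higher in 5 lanes, lower in 2 and equal in 2. In JX the lanes split 5, 2 and 2 in the same order, and in PB 4, 1 and 4. Among animals with donor chromosome 10, IR hits were found in 3 of 53 TAM+ and 1 of 37 TAM- animals, and with donor chromosome 7 in 2 of 19 TAM+ and 1 of 10 TAM- animals. For JX the donor 10 values were 8 of 53 TAM+ and 2 of 37 TAM- animals, and the donor 7 values 2 of 19 TAM+ and 2 of 10 TAM- animals, so the order of the arms differed between donors.

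No gene passed the test between arms. Fisher's exact test, two-sided, was run on every symbol hit in at least 3 animals and adjusted over the genes of that kind of library. In IR it called 0 of 40 genes (0%), with 0 at an unadjusted p under 0.05. In JX it called 0 of 244 genes (0%), with 2 unadjusted, and in PB 0 of 56 genes (0%), with 1 unadjusted. Kcnk13 in JX was the only gene among the 53 that reached 3 animals, 2 TAM+ and 1 TAM- (exact p = 1, adjusted p = 1). With these arm sizes a gene hit in 3 animals cannot go below an exact p of 0.0592, and 4 animals are needed to reach 0.0225. Each site counted for 1 animal only, and no gene of the group reached 4 animals, so none could pass this test. Where every animal with a called site counts, 7 genes of the group were tested in JX, and none passed.

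Among the calcium-activated channels, Kcnn3 and Kcnn2 each had an insertion called in all 3 kinds of library. Kcnn3 encodes a small-conductance calcium-activated channel that shapes the afterhyperpolarisation of neurons. In tumour A (TAM+, donor chromosome 10) an insertion lay 1.90 kb downstream of Kcnn3, at position 89478316 of chromosome 3 (mm9). It had 57792 IR counts (1.48% of the tumour's IR counts, rank 11), 2529 JX counts (1.0%, rank 5) and 2127 PB counts (3.12%, rank 7), with 28 bp between the lowest and the highest of the 3 positions. The tumour's own highest site was larger in each kind, with 15.2% of IR counts in Cherp and 23.0% of PB counts in Unc13d. The Kcnn3 site is thus among the larger insertions of the tumour without being the largest.

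Kcnn2 encodes another small-conductance channel, known for its place in cerebellar Purkinje cells. In tumour B (TAM+, donor chromosome 10) an insertion on chromosome 18 was assigned to Kcnn2 at 171 kb upstream of the gene. It held 107126 IR counts (2.73%, rank 7), 1000 JX counts (0.388%, rank 30) and 953 PB counts (2.67%, rank 7), within 92 bp. A second JX site of the same tumour lay 158 kb upstream, with 97 JX counts, 4071 IR counts (0.104%) and 16 PB counts within 100 bp. At these distances the assignment to Kcnn2 rests on the authors' gene listing alone. Kcnn1 and Kcnn4 had no called site.

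Kcnma1 encodes the pore of the large-conductance (BK) calcium- and voltage-gated channel, and it had the most listed IR positions of the group, 373 in 110 animals. It was called in 2 tumours at different introns. In tumour F (TAM+) the site lay in intron 5 at position 24363411 of chromosome 14, with 88 PB counts (0.969%, rank 6) and no IR or JX count within 100 bp. The PB libraries of tumour F were shallow, with 9081 counts in all. In tumour M (TAM-) the site lay in intron 9 at position 24333595, with 7529 IR counts (0.332%), 142 JX counts (0.0631%) and 99 PB counts (0.139%). Both sites are marked by the authors as disrupting the coding sequence. Kcnmb2, which encodes an auxiliary subunit that inactivates BK channels, was called only at positions shared over animals. Kcnmb1, Kcnmb3 and Kcnmb4 had no called site.

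Kcnt2 encodes a sodium-activated channel of the Slo family. In tumour C (TAM+, donor chromosome 7) it had a private JX site in intron 19, at position 142421561 of chromosome 1, with 130 counts (0.0482%) from the left end alone and 102 IR counts at the same place. A second JX site in intron 7 was credited to tumour K (TAM+) and is shared over animals. Kcnt1 and Kcnu1, the sperm-specific pH-sensitive channel, had no called site.

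**Figure D2:**
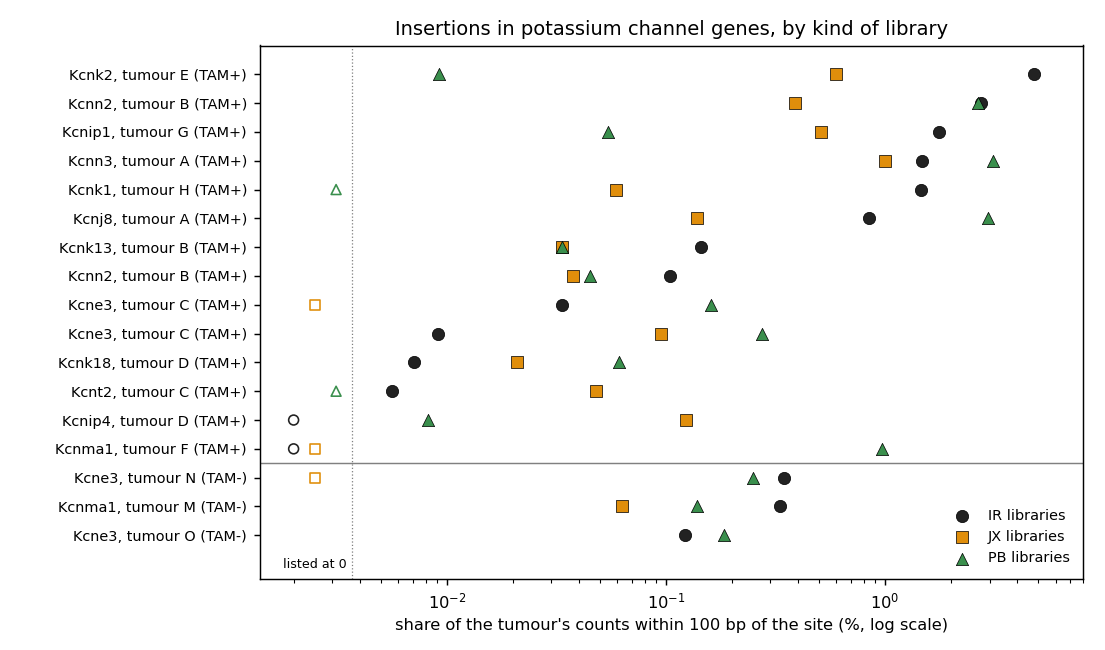
Share of a tumour's counts within 100 bp of each of the 17 insertions that were not shared over animals (log scale), for IR (circles), JX (squares) and PB (triangles), with TAM+ tumours above the line and TAM- tumours below it. Open symbols at the left mark a value of 0. The 3 insertions called in every kind, at Kcnn3, Kcnj8 and Kcnn2, have values over 0.1% in all 3 kinds, whereas Kcnk2, the largest in IR at 4.81%, has 0.00925% in PB.

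Among inward rectifiers, Kcnj8 had the only private insertion. Kcnj8 encodes the Kir6.1 pore of ATP-sensitive channels, best known in vessel walls. In tumour A, which also carried the Kcnn3 insertion, the site lay 8.18 kb downstream of Kcnj8, at position 142511693 of chromosome 6. It had 32865 IR counts (0.844%, rank 18), 350 JX counts (0.139%) and 2021 PB counts (2.96%, rank 8), with the PB position 40 bp away. Tumour A thus had 2 of the 3 insertions of the group that were called in every kind of library. Kcnj3, which encodes a subunit of G protein-gated (GIRK) channels, was called at 2 shared JX positions in tumours B and L, both TAM+. The other 13 Kcnj genes had no called site: Kcnj1, Kcnj2, Kcnj4, Kcnj5, Kcnj6, Kcnj9, Kcnj10, Kcnj11, Kcnj12, Kcnj13, Kcnj14, Kcnj15 and Kcnj16. Their highest single sites reached 0.0277% of an animal's IR counts, 0.073% of its JX counts and 0.148% of its PB counts.

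The two-pore channels gave the insertion with the largest share in IR. Kcnk2 encodes TREK-1, a background channel opened by membrane stretch and lipids. In tumour E (TAM+, donor chromosome 7) it had a site in intron 3, at position 191090871 of chromosome 1, with 128124 IR counts (4.81%, rank 7) and 5189 JX counts (0.596%, rank 8). Nearly all IR counts came from the right end, with 127844 against 295 from the left, although the left library was deeper (1921738 counts against 744241). Other IR sites were as one-sided, toward the left end. Kcnn2 in tumour B had 107078 left and 111 right counts, Kcnj8 in tumour A 32859 and 8, and Kcne3 in tumour N 12876 and 1. The IR sites of Kcnn3, Kcnip1, Kcnk1 and Kcnma1 were less one-sided. At the Kcnk2 site, PB counts within 100 bp numbered 43 of 464969 (0.00925%). The site thus lay high in IR and JX and was nearly unseen in PB.

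Kcnk1 encodes TWIK-1, a weak inward rectifier of the same family. In tumour H (TAM+) an IR site 83.7 kb downstream, at position 128638272 of chromosome 8, held 55032 counts (1.46%, rank 11). It had 482 JX counts (0.0591%) and none in PB. The 482 JX counts were no called site because the highest JX site of the tumour, in Ppm1f, held 39.1% of the JX counts. Kcnk13 encodes THIK-1, a channel inhibited by halothane and known from microglia. Its private JX site in tumour B (TAM+) lay in intron 2 at position 101277509 of chromosome 12, with 86 JX counts, 5667 IR counts (0.144%) and 12 PB counts. Kcnk18 encodes TRESK, a channel activated by calcineurin. In tumour D (TAM+) it had JX and PB sites 29.4 and 29.3 kb upstream on chromosome 19, with 47 and 722 counts (0.021% and 0.0518%). Tumour D had the most called sites of all animals in JX (689) and PB (187), and without it Kcnk18 has no called site. The other 10 Kcnk genes, Kcnk3, Kcnk4, Kcnk5, Kcnk6, Kcnk7, Kcnk9, Kcnk10, Kcnk12, Kcnk15 and Kcnk16, had no called site.

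Of the auxiliary subunits, Kcnip1 carried the site of highest rank. Kcnip genes encode calcium-binding partners of Kv4 channels. In tumour G (TAM+, donor chromosome 7) the Kcnip1 site lay in intron 1 at position 33718201 of chromosome 11, with 58844 IR counts (1.77%, rank 5). Both SB ends were read there, with 36919 left and 21948 right counts. The same place had 3710 JX counts (0.51%) and 121 PB counts (0.0543%). These were not called because Zfp710 held 55.6% of the tumour's JX counts and 74.7% of its PB counts. Kcnip4 had a private JX site in intron 1 in tumour D, at position 49321036 of chromosome 5, with 277 JX counts and 115 PB counts, all from the left end, and no IR count. Kcnip2 and Kcnip3 had no called site, and Kcnip3 had the largest JX share among the 37 genes never called, 0.344%. That share was above those of most called JX sites of the group, which went down to 0.0141%. A call is relative to the highest site of each animal, so a called site need not have a larger share than an uncalled one.

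Kcne3, an auxiliary subunit known to hold Kcnq1 channels open, was the only gene of the group with private sites in more than 2 tumours. In tumour C (TAM+, donor chromosome 7) it had a JX site in intron 1 at position 107326486 of chromosome 7 with 255 counts (0.0945%), and PB sites in intron 2 (95 counts, 0.212%) and exon 4 (72 counts, 0.161%). The exon 4 site, at position 107332802, was the only called site of the group inside an exon. In tumour N (TAM-, donor chromosome 7) an IR site in intron 3 at position 107332072 held 12876 counts (0.345%) with 2296 PB counts (0.249%) and no JX count. In tumour O (TAM-, donor chromosome 10) a PB site 1.51 kb downstream had 293 counts (0.185%) and 2914 IR counts (0.122%) beside it.

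Kcne3 lies on chromosome 7, and its sites moved with the donor chromosome. Any IR position of Kcne3 was listed in 26 of 29 animals with donor chromosome 7 (89.7%) and in 32 of 90 with donor chromosome 10 (35.6%). In PB the shares were 48.3% and 7.78%, and in JX 44.8% and 12.2%. Plekhb1, called in IR in 6 animals, lies 462 kb from the Kcne3 site of tumour N. Kcnmb4, a BK auxiliary subunit on chromosome 10 with no called site, had the opposite order, with an IR position listed in 24.1% of donor 7 animals and 50% of donor 10 animals. Tumour O had its site there with donor chromosome 10, and the part of the donor chromosome in these sites was not tested. Kcne1, which encodes the partner of Kcnq1 in the slow cardiac potassium current, was called once, at a shared JX position in tumour M (TAM-). Kcnab2, which encodes an oxidoreductase-like subunit of Kv1 channels, was called once, at a shared JX position in tumour I (TAM+). Kcne1l, Kcne2, Kcne4, Kcnab1 and Kcnab3 had no called site.

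A position counted as shared where at least 3 animals listed it and none held over 50% of its counts, and a site at any other position is called private. None of the 8 IR and 8 PB sites of these genes was shared, against 11 of 22 JX sites. Shared JX positions covered all called sites of Kcnab2, Kcne1, Kcnj3 and Kcnmb2, so 12 of the 16 genes keep a private insertion. The 17 private insertions lay in 11 tumours, with 14 insertions in 8 of the 72 TAM+ tumours and 3 insertions in 3 of the 47 TAM- tumours. Tumours A, B, C and D held several of them each, so the insertions are not separate replicates of an arm. The split between arms was not tested. At the 8 IR sites the tumour credited held at least 98.2% of all counts of the position, and at the 11 private JX sites at least 97.7%. In PB the lowest value was 78.6%, at the Kcne3 site of tumour O, which had 80 counts in another animal.

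**Figure D3:**
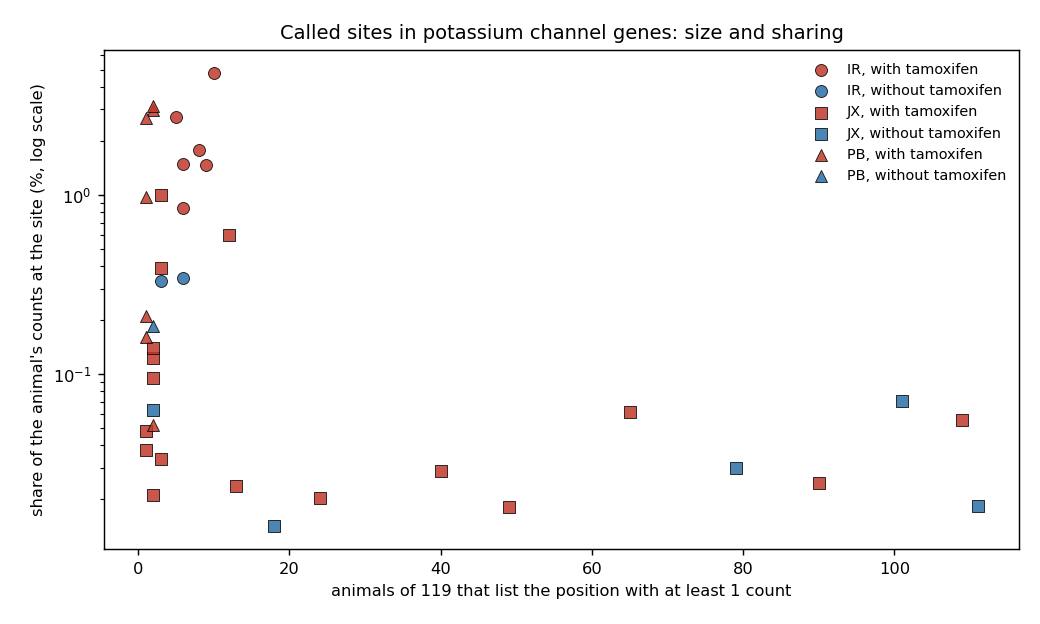
Number of the 119 animals that list the position of each called site (x axis) against the share of the credited animal's counts (y axis, log scale), for IR (circles), JX (squares) and PB (triangles), with TAM+ in red and TAM- in blue. Sites over 0.1% of counts are listed in at most 12 animals, and those listed in 13 or more animals are all JX sites under 0.1%.

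The most widely listed JX position of the group lay in intron 1 of Kcnip4, at position 48990762 of chromosome 5. It was listed in 67 of 72 TAM+ animals (93.1%) and 44 of 47 TAM- animals (93.6%), with a median of 16 counts, and in 5 of 7 control DNAs. The JX position 9.36 kb downstream of Kcnmb2, at 32108463 of chromosome 3, was listed in 65 TAM+ (90.3%) and 44 TAM- animals (93.6%). The JX position 4.78 kb upstream of Kcne1, at 92364492 of chromosome 16, was listed in 60 TAM+ (83.3%) and 41 TAM- animals (87.2%). Positions in Kcnt2 (90 animals), Kcnk13 (79), Kcnab2 (65), Kcnk2 (62), Kcnk1 (49) and Kcnj3 (40) followed. In Kcnab2 the share of animals was 48.6% in TAM+ and 63.8% in TAM-, and in the Kcnj3 intron 2 position 30.6% and 38.3%. These differences were not tested. As called sites, the shared positions reached at most 0.0711% of an animal's JX counts. Of all JX positions, 19.1% were listed in at least 3 animals, and of the JX positions in these genes 19.4%. Sharing in JX was thus as common here as elsewhere in the table. In IR the same Kcnmb2 and Kcne1 positions were listed in 86 and 66 animals, without being called. Of IR positions, 4.82% in these genes and 4.18% in the whole table were listed in at least 3 animals.

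Several shared JX positions came in pairs with a fixed spacing. Among the 33893 JX positions listed in at least 3 animals, 2999 pairs lay exactly 117 bp apart, and the next most common spacing over 10 bp, 11 bp, had 123 pairs. In 2989 of the 2999 pairs (99.7%) the lower position was listed only by animals of lanes 1 and 6. In IR 733 pairs had the same spacing, with the lower position confined to lanes 1 and 6 in 93.3%, and in PB the commonest spacing was 123 bp, with 81 pairs. These genes held 9 of the JX pairs, in Kcnip3, Kcnj3, Kcnk12, Kcnk13, Kcnk2, Kcnma1, Kcnmb2 and Kcnmb4, and the lower position came only from lanes 1 and 6 in all 9. In Kcnk13 position 101219144 was listed in 13 animals of these 2 lanes and position 101219261 in 79 animals of all 9 lanes. In Kcnmb2 the pair was 32108346 in 13 animals and 32108463 in 109, and in Kcnj3 it was 55301232 in 13 and 55301349 in 40. The called Kcnk13 sites of tumours D (TAM+) and P (TAM-) are the lower and the upper position of such a pair. Kcnk13 was hit in fewer than 3 animals, and so was not tested, both with positions within 120 bp merged and with positions within 100 bp merged, a distance that cannot join this pair.

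Low counts of a private site in other tumours were mostly in the same lane. The 8 IR sites were listed 45 times in animals other than the credited one, and 41 of these shared its lane, which held 8 to 15 other animals of the 119. At 7 of the 8 sites the highest count elsewhere was in the same lane. These counts elsewhere peaked at 6 to 824 per site, against 7529 to 128124 counts in the credited tumour. For the 11 private JX sites all 22 listings elsewhere were in the same lane, and in PB 3 of 4. Exchange between libraries of a lane was not tested as a source of these counts.

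By gene part, 4 of the 8 IR sites lay in introns (50%), 1 upstream and 3 downstream (37.5%), whereas introns held 58.4% and downstream positions 18.5% of the 1852 called IR sites with a gene. In JX 14 of 22 sites were intronic (63.6%, against 54.3% of all), 5 upstream and 3 downstream. In PB 2 of 8 were intronic (25.0%, against 59.0%), 1 exonic, 2 upstream and 3 downstream (37.5%, against 16.9%). Of the intronic sites, 2 of 4 IR sites, 11 of 14 JX sites and 1 of 2 PB sites are marked as disrupting the coding sequence, against 84.4% of the intronic IR sites of all genes. The element was listed opposite to the gene in 6 of 8 IR sites (75.0%, against 48.5% of all genes' sites), 15 of 22 JX sites (68.2%, against 50.3%) and 4 of 8 PB sites (50%, against 50.7%). At the 3 insertions called in every kind, the PB orientation was the reverse of the IR orientation. The same held for 686 of 700 IR and PB pairs of the whole table, and IR and JX had the same orientation in 811 of 908 pairs. An orientation can therefore be compared only within a kind of library.

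Called sites in these genes, which count an insertion once for each kind of library, numbered 6 each in tumours A and B, 4 each in C and D, 3 in M, and 2 each in E and F. The other 11 tumours had 1. Joined across kinds, tumour A had 2 insertions, tumour B had 4, and C and D had 3 each. Tumour A had 161 called sites in all genes and all kinds, B had 128, C had 218 and D had 1006, against 30 in tumour E. In IR, tumours D, M and P had their highest site in En2, a gene that held the highest IR site in 6, 5 and 6 animals at these positions. None of the private IR sites of these genes was the highest site of its tumour.

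**Figure D4:**
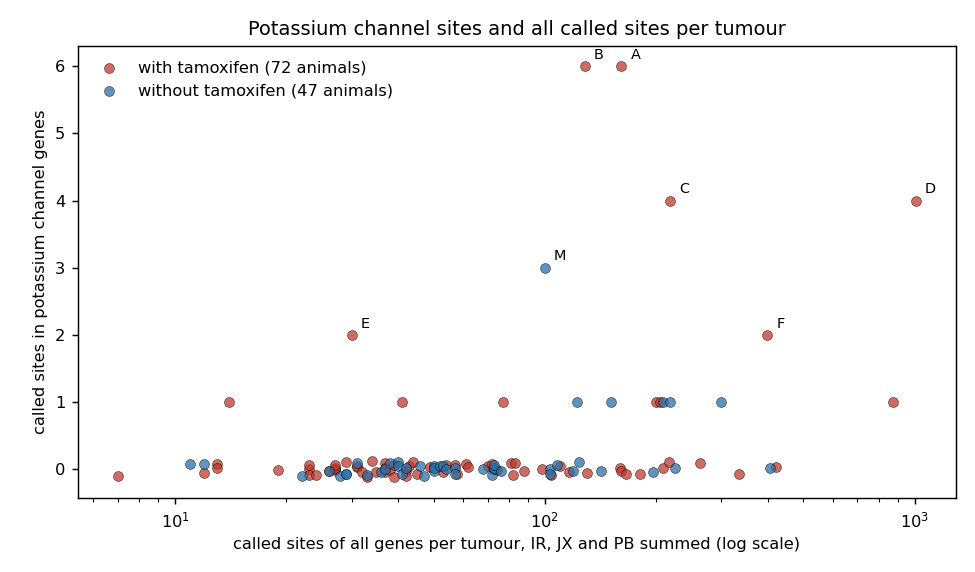
Called sites of all genes per tumour in IR, JX and PB together (x axis, log scale) against called sites in the 53 potassium channel genes (y axis), for 72 TAM+ animals (red) and 47 TAM- animals (blue), with small vertical offsets at 0. Letters mark tumours with more than 1 site in these genes, and tumours A and B stand highest with 6 each.

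The voltage-gated Kv genes of the table, 41 symbols of which 1 (Kcnq1ot1) is no channel gene, were set beside them by counts. They held 0.216% of called IR sites (5 sites) for 0.296% of listed IR positions, 0.192% of JX sites (13) for 0.286% of JX positions, and 0.481% of PB sites (14) for 0.293% of PB positions. Of the genes followed here 15.1% were hit in IR, against 9.76% of the Kv genes, and 28.3% in JX, against 22.0%. In PB 6 of 53 (11.3%) were hit, against 10 of 41 Kv genes (24.4%). No test of these differences was made, because both lists were drawn with results of these data known.

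Known binding partners were counted from a list of 21 genes, drawn up with earlier results known, of which 11 also belong to the Kv list. IR sites hit 2 of 21 (9.52%, against 6.35% of all symbols), JX sites 8 (38.1%, against 16.4%) and PB sites 4 (19.0%, against 7.83%), 11 genes in all. Of the 10 JX sites only 2 were private. Partners of Kcnip subunits hit in IR were Dpp6, in 1 TAM+ animal (1.73% of its counts), and Dpp10, in 1 TAM+ animal (0.0525%). In JX, Dpp6 and Kcnd2 were hit in 1 TAM+ animal each, at private positions. At shared JX positions, Dpp10 was hit in 2 TAM- animals and Kcnd3 in 1 TAM- animal. Dpp10 was also hit in 1 TAM+ animal in PB (0.0664%). In PB the partner with the largest share was Kcnh2, a pore that Kcne subunits can join, in 2 TAM+ animals (up to 3.04%). Abcc8 and Abcc9, the sulfonylurea receptors of Kcnj8 and Kcnj11 pores, were called only at shared JX positions. No partner was hit in TAM- animals in IR or PB, which leaves room for a share of up to 7.55% of the 47 animals (exact 95% interval).

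The depth behind these values differed by kind of library. IR counts per animal had medians of 3115243 in TAM+ and 3143569 in TAM- animals, JX medians were 441808 and 287429, and PB medians were 204964 and 216967. The lowest totals were 295999 in IR, 116836 in JX and 1714 in PB, all TAM+. Called sites per animal had IR medians of 12 in TAM+ and 13 in TAM- animals, JX medians of 21 and 25, and PB medians of 11 and 15. The counts carry no molecular identifiers and a molecule may be read many times. The intervals given are over animals and cover the sampling of animals only. The PB right end gave 0 counts at Kcnn3 and Kcnj8, of 13873 counts in tumour A, and 0 at Kcnn2, of 6600 counts in tumour B. The PB left end gave 2127 and 2021 of 54324 counts in tumour A and 953 of 29037 in tumour B.

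The 37 genes with no called site were not empty of counts. Over all 53 genes, listed positions per gene had an IR median of 28 (0 to 373), a JX median of 6 (0 to 81) and a PB median of 11 (0 to 120). Genes without a call reached at most 0.0789% of an animal's IR counts (Kcnk4), 0.344% of JX counts (Kcnip3) and 0.287% of PB counts (Kcnab1).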

How the data were processed

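The authors deposited raw counts per insertion position and library, whole numbers of at least 1 from 832 libraries, with a gene, gene part and orientation per position. Genomic DNA was sheared, ligated to splinkerette adaptors, cut with BamHI and amplified, per the labels' protocols. Per the submitters' processing notes the build was mm9. Aligner and counting rule: not given in the sources used here. Arm, lane, donor and days (a listed value of the deposited sample sheet) came from its 868 lines. Ends and repeat lanes were summed per animal and kind. Of the animals, 2 with conflicting arms were left out, and 7 were in 2 lanes. Positions within 10 bp were merged around the highest, and a site was credited to the animal with its highest share. Lines with no gene made up 19.7% of 3961094. Genes with a called site are named, those without are given by subfamily. The 53 genes, the partners and the compared lists were chosen with earlier results of these data known. Symbols were checked against GRCm38.p6 names, and all 53 matched. Intervals are Clopper-Pearson at 95%. Fisher's test was tested on simulated data. Tools were Python 3.11.15, pandas 2.3.3, numpy 2.4.6, scipy 1.17.1 and matplotlib 3.10.9.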

Additional observations from a re-analysis of the deposited data

Results flagged for a closer look

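Called sites of these genes also appeared in animals outside both arms. Control DNAs gave none in IR, of 248 called sites in all, and none in PB, of 52. In JX, control DNAs had 21 called sites in 10 of these genes, of 7333 called sites in all. Among them were the shared positions of Kcnt2, Kcnab2 and Kcne1. Control tumours had 5 JX sites in these genes, of 1227 in all. Here a position counts once in each DNA or animal where it was called, whereas in the arms it was credited to 1 animal. Among the 5 control tumours there was 1 such site in IR, at the shared position upstream of Kcne1 with 0.0494% of counts, and 1 in PB, 17.6 kb downstream of Kcne3 with 24198 counts (2.25%, rank 6). Among the 8 animals with no usable arm there was 1 in IR, in Kcnip1, and 1 in PB, 14.9 kb downstream of Kcnj1 with 20 counts (0.113%). The Kcnip1 site had 214 counts (0.0864%) at position 33718201, the position of tumour G, which held 58844 counts there. Whether the 214 counts come from tumour G was not tested.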

How the results depend on the processing

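In all 14 alternatives, 11 planned and 3 chosen after seeing the data, Fisher's exact test called 0 genes of any kind of library after adjustment, with at most 520 of 17750 genes unadjusted. The counts of genes and animals hit depended mainly on the minimum share of the highest site. At 0.1% of the highest site, 26 of the 53 genes were hit in IR (35.0% of all symbols), 32 in JX (46.1%) and 30 in PB (40.5%). Animals hit were then 30 TAM+ and 13 TAM- for IR, 26 TAM+ and 27 TAM- for JX, and 19 TAM+ and 20 TAM- for PB, so the order of the arms in JX and PB turned round. With 10 counts and no minimum share (added) 51 genes were hit in IR (94.6% of all symbols), 37 in JX (60.7%) and 44 in PB (78.3%). Animals hit were 71 TAM+ and 45 TAM- for IR, 50 of 72 TAM+ and 41 of 47 TAM- for JX, and 46 TAM+ and 27 TAM- for PB. The order of the shares in JX turned here too. That setting left 3 of 45 tested genes of the group at an unadjusted p under 0.05 in IR, with Kcnk4 lowest (0 TAM+ and 5 TAM- animals, exact p = 0.0084, adjusted p = 1). At 5% of the highest site, 3 genes remained in JX, in 3 TAM+ and 0 TAM- animals, and 3 in PB, in 2 and 0, and TAM- animals in IR fell to 0. At 100 counts, JX hits were in 1 TAM- animal and PB hits in 3 TAM+ animals. With every animal credited, JX hits were in 15 TAM+ and 11 TAM- animals, which also turned the order of the shares. Without shared positions, JX hits were in 5 TAM+ and 1 TAM- animals. In gene bodies alone, IR had 4 genes in 2 TAM+ and 2 TAM- animals, which turned the order of the shares in IR. PB then had 2 genes in 2 TAM+ and 0 TAM- animals. Leaving out the donor chromosome left 1 TAM- animal in IR. Requiring both ends (added) left 1 gene in PB, Kcne3, in 1 TAM+ and 0 TAM- animals. Merging within 100 or 120 bp (the second added) moved JX from 15 to 14 genes, without Kcnk18. Depth limited PB most, with 1714 counts in the shallowest animal. No paired analysis was possible because animals of the arms carry no shared replicate numbers. All 9 lanes hold both arms, and the shares were compared within lanes.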
